A study of Mus musculus with 12 samples.

Results

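The subject here is the genotype by extract interaction in mouse lung, that is, how the response to house dust mite extract differed between mice lacking both Tlr3 and Mavs and wild-type mice. It was measured in the 6 libraries of the knockout set, out of 12 libraries in the series. The mice, of strain background B6, were 6 to 8 weeks of age, and whole lung RNA was sequenced after 14 to 16 h. Wild-type lung is represented by 1 library with PBS (library 1) and 2 with extract of the mite Dermatophagoides farinae (D.f., libraries 3 and 4). The TLR3MAVS double knockout (DKO) is represented by 1 library with PBS (library 2) and 2 with D.f. extract (libraries 5 and 6). The other 6 libraries, the RNase III set, hold wild-type lung only, and 4 of them (2 PBS, 2 D.f.) served as wild-type libraries that the interaction does not use. Nothing in the labels ties replicates to different animals. The p-values therefore reflect only the spread of these libraries, which could be technical. How the mice were made, whether the strain carries other alleles, and the route of the extract were not stated in the labels.

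Tlr3 binds double-stranded RNA in endosomes and signals through the adaptor Ticam1. Mavs is the adaptor on mitochondria through which the cytosolic RNA sensors Ddx58 (RIG-I) and Ifih1 (MDA5) signal. Both routes activate Irf3 and NF-kB and induce type I interferon, which in turn drives a broad set of interferon-stimulated genes, many of them through a promoter element called the ISRE. Mite extract also holds proteases, lipids and other ligands that act through receptors other than these.

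The interaction of a gene is its log2 response to the extract in the knockout minus that in wild type. It equals the difference between genotypes with extract (2 libraries each) minus the difference between genotypes with PBS (1 library each), so both parts are given below. Levels are CPM, that is, reads relative to the size of the library, and a gene was called at an adjusted p below 0.05 in edgeR's quasi-likelihood test over 15294 tested genes. Each library held 15687699 to 20945618 assigned reads, so that 3 reads, the limit a count of 0 allows, stood for 0.148 to 0.189 CPM, counting error only. Replicates were not duplicates, and the knockout pair was the more unequal. Of 13334 genes whose mean log2 CPM reached 1, 449 (3.37%) differed by more than 2-fold between libraries 5 and 6, against 46 (0.345%) between libraries 3 and 4. The targeted genes followed the labels. Tlr3 (chromosome 8, 46481019 to 46495962, NCBIM37 as for all gene positions here) read 10.53, 14.78 and 10.05 CPM in the 3 knockout libraries against 42.4, 156 and 113 CPM in wild type. Mavs (chromosome 2, 131059799 to 131073761) read 3.09, 2.66 and 2.35 CPM in the knockout against 36.4, 34.3 and 32.2 CPM. The alveolar type 2 genes, which mark lung tissue, summed to between 12443 and 18308 CPM in the 6 libraries. In bulk lung, fewer cells of a type and less RNA per cell cannot be told apart.

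The interferon-stimulated gene Isg15, the interferon-induced Ifit3 and the chemokine Cxcl10 are shown first by their promoters, because they are interferon-induced genes with large negative interactions and their promoters hold the ISRE core. Each is 300 bases from RefSeq (GRCm38.p6, from 250 before to 50 after the start of the gene), 5′ to 3′ on the gene's strand, with matches to the ISRE core (GAAANNGAAA on either strand, overlapping matches allowed) in capitals. Isg15 lies at chr4:156200769-156201068 on the minus strand, Ifit3 at chr19:34583279-34583578 on the plus strand and Cxcl10 at chr5:92348840-92349139 on the minus strand.
Isg15: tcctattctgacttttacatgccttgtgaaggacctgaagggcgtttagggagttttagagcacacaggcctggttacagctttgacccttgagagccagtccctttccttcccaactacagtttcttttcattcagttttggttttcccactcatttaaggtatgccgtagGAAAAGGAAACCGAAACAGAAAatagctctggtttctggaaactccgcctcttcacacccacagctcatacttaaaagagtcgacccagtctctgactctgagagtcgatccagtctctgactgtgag
Ifit3: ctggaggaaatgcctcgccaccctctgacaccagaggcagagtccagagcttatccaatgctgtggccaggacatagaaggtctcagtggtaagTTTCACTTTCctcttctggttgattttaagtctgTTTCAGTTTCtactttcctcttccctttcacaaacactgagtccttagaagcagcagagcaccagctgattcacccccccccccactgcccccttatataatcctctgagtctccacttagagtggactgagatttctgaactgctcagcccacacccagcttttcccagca
Cxcl10: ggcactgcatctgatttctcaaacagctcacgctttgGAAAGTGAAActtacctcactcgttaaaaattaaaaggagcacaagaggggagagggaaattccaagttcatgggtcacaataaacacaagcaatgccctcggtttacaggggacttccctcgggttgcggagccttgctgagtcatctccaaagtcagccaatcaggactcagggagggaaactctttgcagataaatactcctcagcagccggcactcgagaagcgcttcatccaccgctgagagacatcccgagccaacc
The Isg15 window holds 3 overlapping matches, that of Ifit3 holds 2 and that of Cxcl10 holds 1. The core is not in every gene with a large negative interaction. Among others described below, Slfn8 holds 2 matches, Slfn9, Psme1 and Eomes hold 1 each, and Ifit2, Apod and Ms4a6b hold 0. Among all 27025 genes of the promoter table, 3.99% hold this core, and a match is a description of letters, not of binding. How often it occurs in each class of interaction genes is given after the classes.

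Across all genes, the interaction was called for 1 gene, which was lower in the knockout (0.00654% of genes tested), and for 0 higher (0%). At an unadjusted p below 0.05, 900 genes were lower (5.88%) and 581 higher (3.80%), and DESeq2 called 178 lower (1.16%) and 35 higher (0.229%). The smallest adjusted p after the called gene was 0.112, and 44 other genes lay under 0.15. In the same fit, the extract raised 211 genes (1.38%) and lowered 21 (0.137%) in wild type. In the knockout 0 genes were called (0%) by edgeR, 847 had an unadjusted p below 0.05, and DESeq2 called 36, of which 33 rose. Between the D.f. groups, where both genotypes have replicates, 308 genes were lower in the knockout (2.01%) and 79 higher (0.517%). When wild-type libraries of both sets were joined in a fit over 10 libraries with the set as a term, 75 of 15518 genes were called lower (0.483%) and 5 higher (0.0322%), and 66 of the 75 and all 5 were also called by DESeq2. In these fits more interactions were called lower than higher in the knockout, and the number called varied with the fit, as the plot of calls by fit shows. A lower interaction need not be a smaller response, nor a higher one a larger response. Of the 35 genes called higher by DESeq2, 20 had a decrease called in wild type but not in the knockout, not counting genes with responses of at least 1 in opposite directions.

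**Figure D1:**
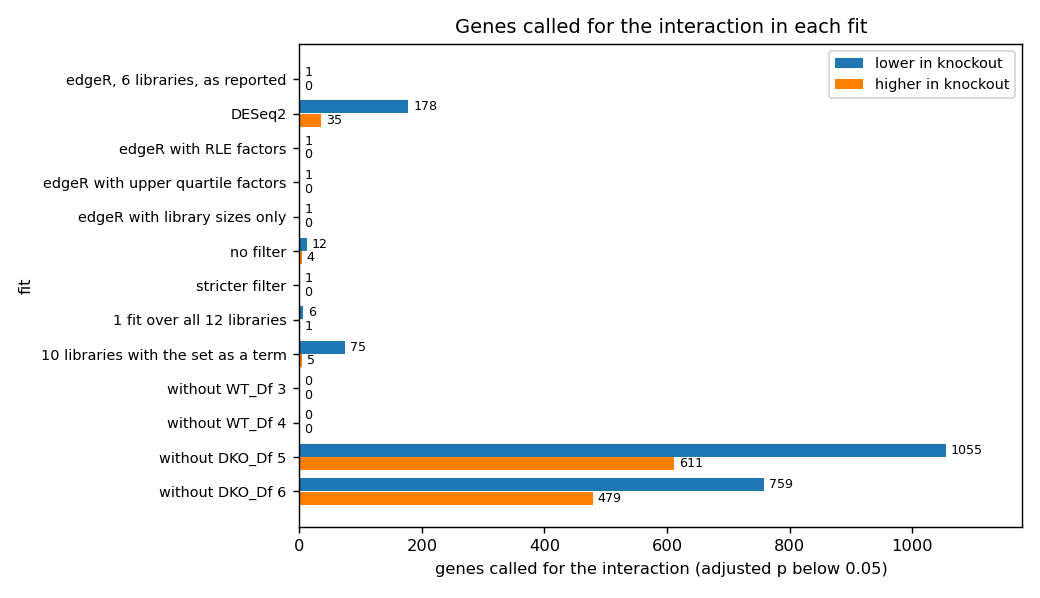
Genes called for the interaction (x axis, number at an adjusted p below 0.05) in each fit (y axis), with blue bars for genes lower and orange bars for genes higher in the knockout. The 6-library edgeR fit called 1 and 0, DESeq2 178 and 35, and the 10-library fit 75 and 5. Leaving out a wild-type D.f. library (WT_Df) gave 0 and leaving out a knockout D.f. library (DKO_Df) gave 759 or 1055 lower.

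The called gene was Ccl5, a chemokine that attracts T cells, NK cells and monocytes (chromosome 11, 83339280 to 83344020, minus strand). With PBS it read 3.24 CPM in wild type and 12.05 CPM in the knockout. With extract it read 50.6 and 44.1 CPM in wild type and 6.01 and 5.55 CPM in the knockout. The wild-type libraries with extract were the highest of all, and both knockout libraries with extract lay below the knockout library with PBS. The wild-type response was 3.86 ± 0.20 (log2 ± SE, adjusted p = 0.0145) and that of the knockout -1.06 ± 0.17 (adjusted p = 0.819). Its interaction was -4.92 ± 0.25 (edgeR's quasi-likelihood test, adjusted p = 0.0429). Of this, the D.f. groups gave -3.03 ± 0.14 (adjusted p = 0.00468) and the PBS libraries 1.89, which has no test. The call was lost without either wild-type D.f. library, with interactions of -4.79 and -4.995, and was kept in the 10-library fit (-3.94, adjusted p = 0.0290). In the RNase III set, Ccl5 rose in wild type by 2.43 ± 0.25 (adjusted p = 0.00177).

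Because so few genes passed the test, genes were also sorted by the size of their responses, as a description. A response of at least 1 (2-fold) counted as present and one under 0.5 (1.41-fold) as small, among the same 13334 genes. By this rule 366 genes (2.74%) had a wild-type increase and a small knockout response, and 98 (0.735%) a wild-type decrease and a small knockout response; these are called lost increases and lost decreases. A response in the knockout with a small one in wild type was seen upward in 50 genes (0.375%) and downward in 22 (0.165%). Responses of at least 1 in opposite directions were seen in 23 genes, 12 up in wild type and down in the knockout (0.0900%) and 11 the other way (0.0825%). The classes were cut from the same 6 libraries, so the sign of their interaction and much of the difference between their D.f. groups follow from the rule. Their medians and counts in these libraries are descriptions that support nothing, and the RNase III set is the measure the rule did not use. The plot of responses places these genes in their sectors.

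**Figure D2:**
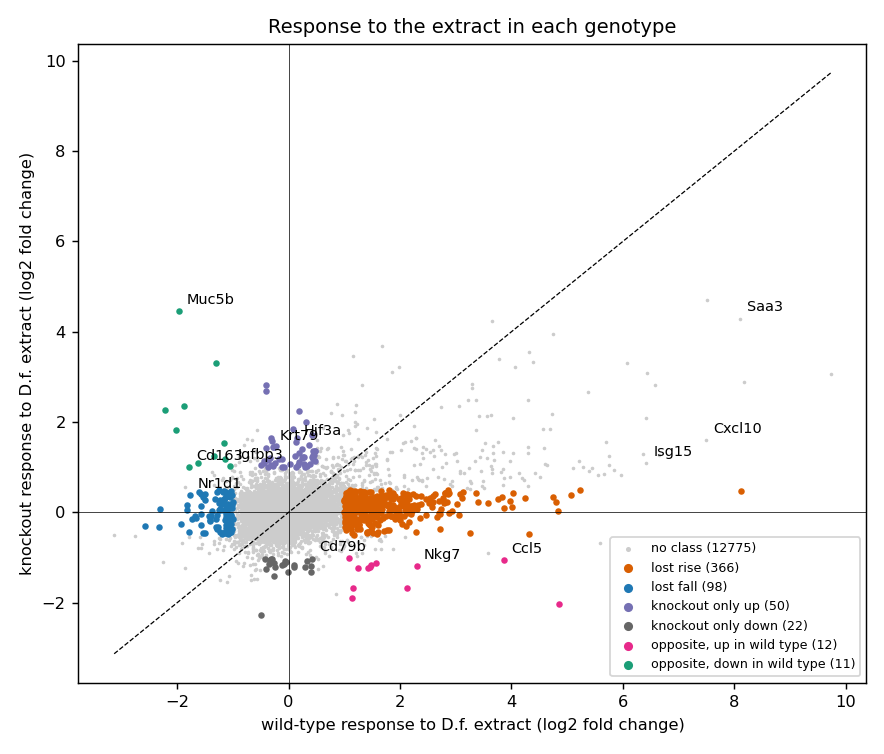
Log2 response to the extract in wild type (x axis) and in the knockout (y axis) of the 13334 genes whose mean log2 CPM reached 1, 1 point per gene, coloured by class, with the dashed line marking equal responses. The 366 lost increases (orange) form a band to the right along a knockout response of 0, while Isg15, Cxcl10 and Saa3 lie below the line with a knockout response above 1.

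The lost increases were the largest class. Between the D.f. groups, which the rule also used, 150 of the 366 were called lower in the knockout and 0 higher (all tested genes: 2.01% and 0.517%). The median interaction was -1.43, with a median of -1.02 between the D.f. groups and 0.38 between the PBS libraries. Among the 362 that were also tested in the RNase III set, 269 rose with extract in wild type and 0 fell, where 6.51% of all genes rose and 4.50% fell, and the median response was 1.42. Of 366, 211 had PBS libraries within 0.5 of each other, a restriction added after seeing the data, and 119 of these were called lower between the D.f. groups.

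Of the 366, 27 were on the list of type I interferon-stimulated genes, among them Ifit2 and Ifit3. Ifit2, an RNA-binding inhibitor of translation (chromosome 19, 34625184 to 34650909, plus strand), read 41.5 CPM with PBS in wild type and 41.6 CPM in the knockout. With extract it read 1425 and 949 CPM in wild type and 44.9 and 40.3 CPM in the knockout. All 4 libraries other than those of wild type with extract lay between 40.3 and 44.9 CPM. The interaction was -4.80 ± 0.38 (adjusted p = 0.112, not called), and the D.f. groups differed by -4.80 ± 0.24 (adjusted p = 0.00468). Ifit3, whose promoter is printed above (chromosome 19, 34658021 to 34663221, plus strand), read 22.2 and 24.7 CPM with PBS in wild type and knockout. With extract it read 970 and 705 CPM in wild type against 39.5 and 29.8 CPM in the knockout, an interaction of -4.75 ± 0.38. Isg15, a ubiquitin-like protein that is attached to other proteins during antiviral responses (chromosome 4, 155573533 to 155574927, minus strand), read 2.96 and 3.85 CPM with PBS. It reached 289 and 220 CPM with extract in wild type and 10.5 and 6.00 CPM in the knockout. Its interaction was -5.33 ± 0.60 (adjusted p = 0.149), and the D.f. groups differed by -4.95 ± 0.30 (adjusted p = 0.00621). The knockout values with extract were above the knockout PBS value in both libraries, a response of 1.09 ± 0.41 (adjusted p = 0.819) that puts Isg15 outside the class by size.

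Other members of the class had different roles. C2, a complement protease of the classical pathway (chromosome 17, 34999549 to 35035397, minus strand), read 11.0 CPM with PBS and 56.4 and 57.6 CPM with extract in wild type, against 16.8, 16.1 and 14.8 CPM in the knockout. It overlaps Gm20547 on the same strand, whose reads could not be separated. Apod, a lipid-binding apolipoprotein (chromosome 16, 31296278 to 31314894, minus strand), read 5.52 CPM with PBS and 71.2 and 60.7 CPM with extract in wild type, and 4.95 to 6.70 CPM in the 3 knockout libraries. Psme1, a subunit of the proteasome activator PA28 used in antigen presentation (chromosome 14, 56196960 to 56200366, plus strand), read 47.9 CPM with PBS and 181 and 169 CPM with extract in wild type against 56.7, 75.5 and 67.8 CPM in the knockout. For all of these the wild-type libraries with extract stood above the other 4. Slfn8 and Slfn9, of the Schlafen family, had interactions of -3.93 ± 0.47 and -3.90 ± 0.40, but near-identical copies make their counts uncertain. Ms4a6b, a membrane protein of leukocytes, had an interaction of -2.52 ± 0.29, with a PBS difference of 0.98. None of C2, Apod, Psme1, Slfn8, Slfn9 and Ms4a6b was called for the interaction, and all were called lower in the knockout between the D.f. groups (adjusted p from 0.00468 to 0.0186).

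**Figure D3:**
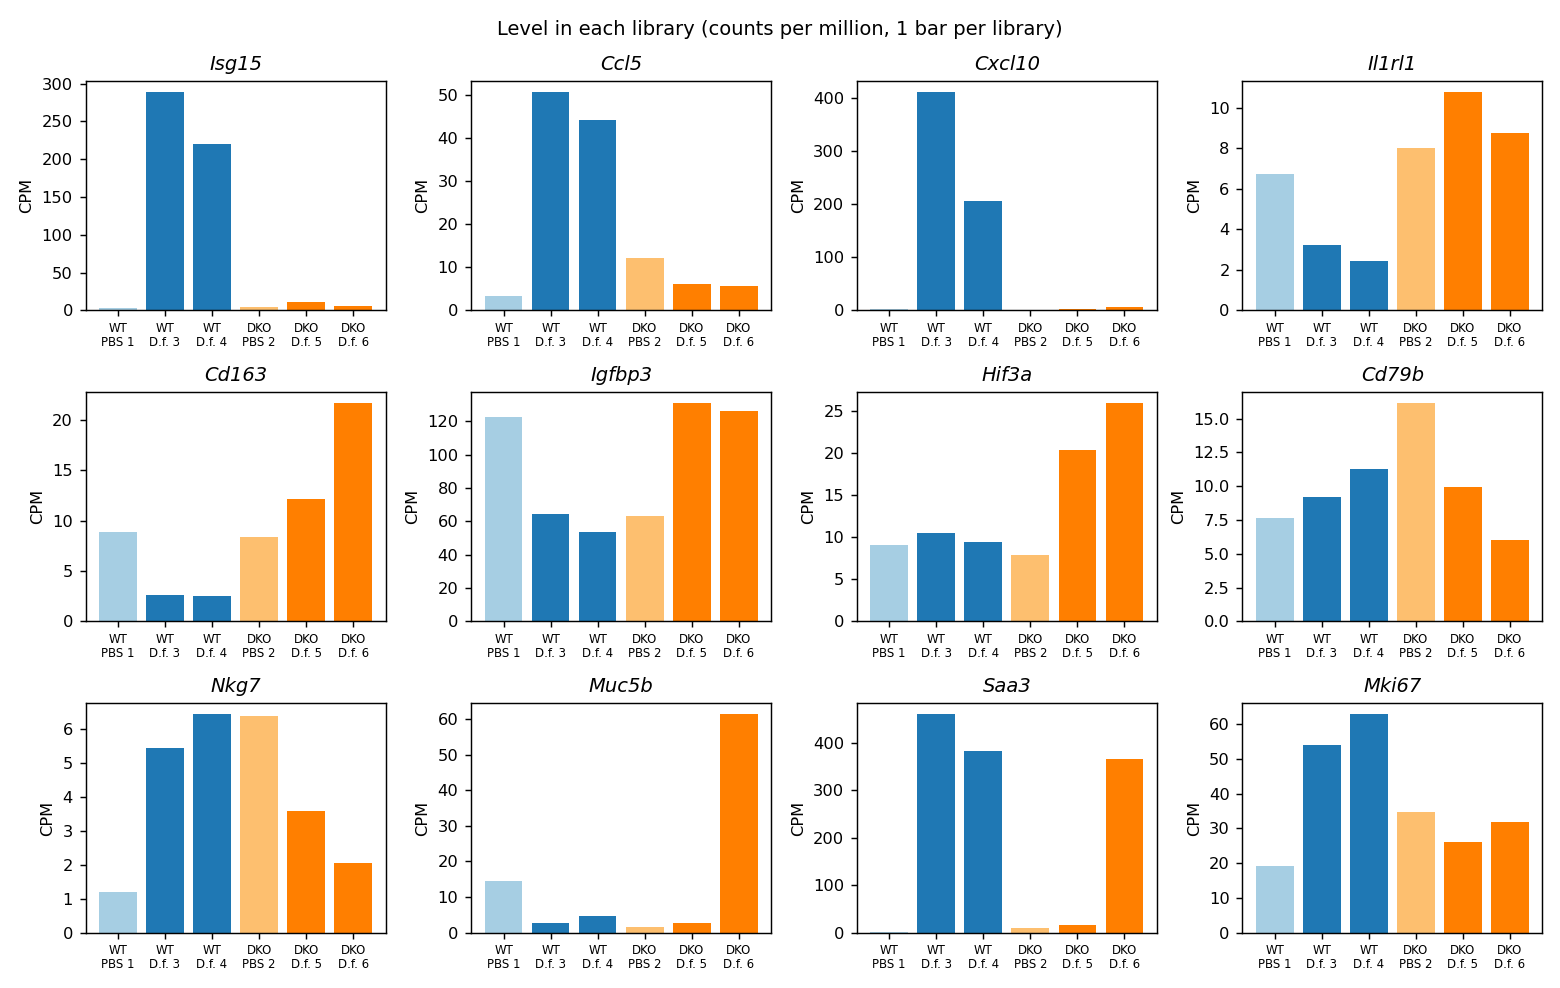
CPM (y axis, linear, from 0, own scale in each panel) of 12 genes in each of the 6 libraries (x axis), 1 bar per library, with PBS in light and D.f. extract in dark colours, wild type in blue and knockout in orange. Isg15, Ccl5 and Cxcl10 are high only in wild type with extract, Cd163 is lowest there and highest in the knockout with extract, and Saa3 and Muc5b are high in 1 of the 2 knockout libraries with extract.

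Gene lists give the same picture by pathway. Of 48 tested type I interferon-stimulated genes, 48 had a negative interaction, with a median of -2.66 against -0.01 over all genes tested, and 47 had an unadjusted p below 0.05. The median response was 3.07 in wild type and 0.44 in the knockout, and 40 were called lower in the knockout between the D.f. groups, where 2.01% of all tested genes were. The PBS libraries differed by a median of 0.15, and in the 40 members within 0.5 the median interaction was -2.45. Of 9 interferon-induced chemokines, 9 had a negative interaction (median -4.13), and 5 were called lower between the D.f. groups. The PBS libraries differed by a median of 0.14, but only 3 of the 9 had PBS libraries within 0.5 (median interaction -5.88). Cxcl10, a ligand of the receptor Cxcr3 (chromosome 5, 92775664 to 92777915, minus strand), read 1.71 CPM with PBS and 411 and 206 CPM with extract in wild type. In the knockout it read 1.51 CPM with PBS and 2.77 and 6.45 CPM with extract, and the interaction was -5.88 ± 1.28 (adjusted p = 0.249; 0.0339 in the 10-library fit). Cxcl9, a second Cxcr3 ligand, read 0.285 CPM with PBS and 86.7 and 74.4 CPM with extract in wild type against 1.95, 1.06 and 4.30 CPM in the knockout.

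Nucleic acid sensors and adaptors, among them Ddx58 and Ifih1 upstream of Mavs, mostly had negative interactions too. Of 21 nucleic acid sensors and adaptors other than the targeted Tlr3 and Mavs, 20 had a negative interaction (median -1.11) and 8 were called lower between the D.f. groups (2.01% of all genes). Ddx58 read 83.1 and 87.2 CPM with PBS in wild type and knockout. With extract it read 540 and 444 CPM in wild type and 108 and 82.8 CPM in the knockout, an interaction of -2.44 ± 0.30 (adjusted p = 0.149). Ifih1 read 64.8 and 71.4 CPM with PBS, 490 and 374 CPM with extract in wild type and 90.0 and 61.4 CPM in the knockout. Eif2ak2, the kinase PKR that halts translation on double-stranded RNA, read 45.9 and 48.0 CPM with PBS, 369 and 276 CPM with extract in wild type and 72.6 and 57.6 CPM in the knockout. Tlr3 is itself targeted, so its interaction of -1.43 ± 0.42 (adjusted p = 0.353) is given as a value only. Ifnb1, the gene of interferon beta, had 2 reads in wild-type library 3 and 0 in the other 5 and was not tested.

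Genes of antigen presentation and of lymphocytes had negative interactions as well. Of 19 genes of MHC class I presentation, 19 had a negative interaction (median -1.56), and 9 were called lower in the knockout with extract (2.01% of all genes, also for the lists that follow). B2m, the light chain of MHC class I, read 435 and 625 CPM with PBS, 1431 and 1333 CPM with extract in wild type and 751 and 541 CPM in the knockout. Of 29 interferon-gamma-associated genes, 28 had a negative interaction, but 6 had an unadjusted p below 0.05 and 3 were called lower between the D.f. groups. The knockout libraries were unequal for this list. Gbp2, a guanylate-binding protein, read 39.0 and 59.2 CPM with PBS, 582 and 401 CPM with extract in wild type, and 174 and 44.5 CPM in knockout libraries 5 and 6. For this list the median interaction ranged from -1.03 without knockout library 6 to -3.48 without knockout library 5, and over the 9 members with similar PBS libraries it was -0.35. Of 21 T cell genes, 21 had a negative interaction (median -1.46), with PBS libraries 0.60 apart and 2 members called lower between the D.f. groups, among them Lck, a kinase of T cell receptor signalling.

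Not every wild-type response in this set was seen in the RNase III set. Of 26 cell division genes, 26 had a negative interaction (median -1.09), the wild-type median response was 1.09 and 4 were called lower between the D.f. groups (2.01% of all genes). Mki67, a marker of dividing cells, read 19.1 CPM with PBS and 54.0 and 62.9 CPM with extract in wild type, and 34.9, 26.1 and 31.8 CPM in the knockout. Its interaction was -1.88 ± 0.25 (adjusted p = 0.149). In the 10-library fit the interaction of Mki67 was -0.65 (adjusted p = 0.903) and the median of the list -0.28. In the RNase III set the median wild-type response of the list was -0.09 and that of Mki67 -0.27 ± 0.40 (adjusted p = 0.729). Siglech, a surface receptor of plasmacytoid dendritic cells, read 1.42 CPM with PBS and 14.1 and 8.94 CPM with extract in wild type and 1.70 to 2.34 CPM in the knockout. Its wild-type response was 3.02 ± 0.44 here (adjusted p = 0.0489) and 0.24 ± 0.56 in the RNase III set (adjusted p = 0.842). Whether the responses of the sets differ was not tested.

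**Figure D4:**
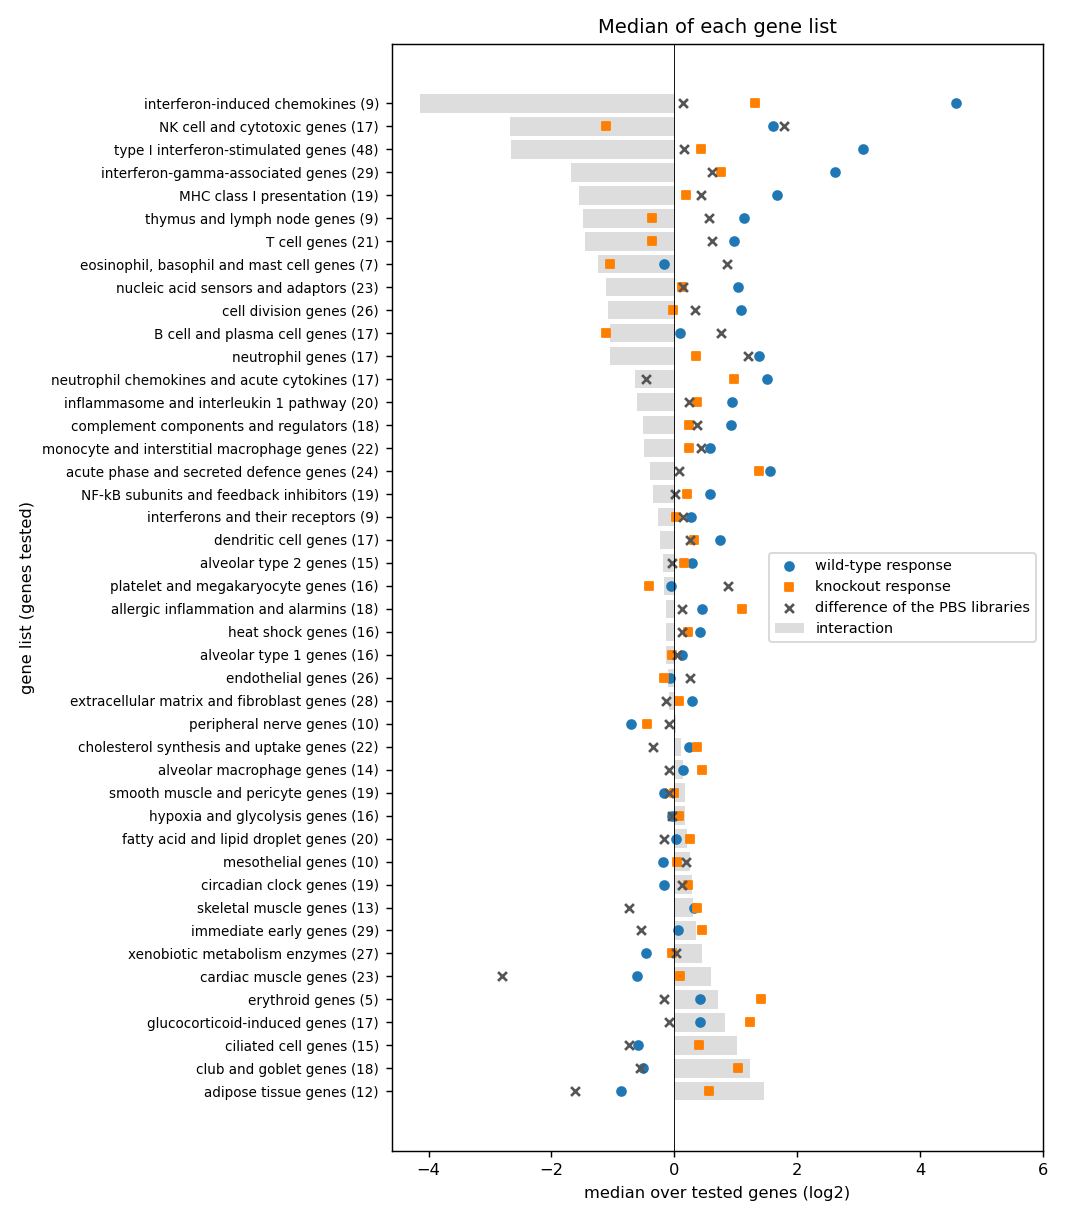
Median over the tested genes of each list (y axis, number tested in parentheses) on the log2 scale (x axis), for lists with 5 or more tested genes, with grey bars for the interaction, blue circles for the wild-type response, orange squares for the knockout response and crosses for the difference of the 2 PBS libraries. The interferon-induced chemokines and interferon-stimulated genes have strongly negative medians with a cross nearer 0, whereas NK cell genes (cross at 1.78) and adipose genes (cross at -1.61) combine a large interaction with PBS libraries that differ. The cross is a median, and only 3 of the 9 chemokines had PBS libraries within 0.5.

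The lost decreases numbered 98. Their median interaction was 1.22, of which 0.76 lay between the D.f. groups and -0.47 between the PBS libraries, and 15 were called higher in the knockout with extract (0.517% of all genes), again in libraries that the rule used. In wild type of the RNase III set 35 of 91 fell and 0 rose, with 4.50% of all genes falling. Dbp and Nr1d1, both of the circadian clock output, belonged here. Nr1d1, the nuclear receptor Rev-erb alpha (chromosome 11, 98629246 to 98636647, minus strand), read 71.8 CPM with PBS and 19.8 and 22.4 CPM with extract in wild type. Knockout lung read 51.5 CPM with PBS and 71.5 and 62.6 CPM with extract. Its interaction was 2.15 ± 0.20 (adjusted p = 0.112), the D.f. groups differed by 1.67 ± 0.12 (adjusted p = 0.00959), and in the RNase III set it fell by 2.84 ± 0.36 (adjusted p = 0.00370). The gene overlaps Thra on the other strand. The hour of sampling was not stated in the labels, and of 19 clock genes 15 had a positive interaction (median 0.28, and 0.59 in the 10-library fit).

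A lipid transporter and a cytokine receptor were further lost decreases whose PBS libraries lay close together. Abca6, of the ABC family of transporters, read 10.9 CPM with PBS and 3.45 and 3.90 CPM with extract in wild type, and 10.7, 15.8 and 12.5 CPM in the knockout. Il1rl1, the receptor ST2 for the alarmin interleukin 33 (chromosome 1, 40486415 to 40522260, plus strand), read 6.72 CPM with PBS and 3.21 and 2.46 CPM with extract in wild type. In the knockout it read 8.01 CPM with PBS and 10.8 and 8.75 CPM with extract. With extract, Il1rl1 was higher in the knockout by 1.78 ± 0.22 (adjusted p = 0.0271), its interaction was 1.52 ± 0.37 (adjusted p = 0.294), and in the RNase III set it fell by 1.19 ± 0.24 (adjusted p = 0.0213). Il33 itself read 100 and 79.5 CPM with extract in wild type and 97.0 and 85.2 CPM in the knockout, with an interaction of 0.42 ± 0.25 (adjusted p = 0.708).

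Some genes of motile cilia were lost decreases too, including 2 of the 15 tested on the list of ciliated cell genes, Hydin and Dnaic1. Dnahc6, Dnahc5 and Dnahc9 encode dynein heavy chains of motile cilia, and Hydin a protein of the ciliary central pair. Dnahc6 (chromosome 6, 72967600 to 73171645, minus strand) read 113 CPM with PBS and 46.3 and 43.6 CPM with extract in wild type, and 72.1, 89.2 and 89.4 CPM in the knockout, an interaction of 1.63 ± 0.15 (adjusted p = 0.112). Dnahc5 read 106, 52.1 and 45.1 CPM in wild type and 68.5, 89.0 and 92.6 CPM in the knockout. Each was highest in the wild-type PBS library and lowest in wild type with extract, with the 3 knockout libraries in between. All 15 tested ciliated cell genes had a positive interaction (median 1.02). In 12 the unadjusted p was below 0.05, where 3.80% of all tested genes were higher at that limit. The PBS libraries differed by a median of -0.73, and only 2 of the 15 had PBS libraries within 0.5. Between the D.f. groups 1 of the 15 was called higher in the knockout (0.517% of all genes). The summed level of the list was 485 CPM in the wild-type PBS library, 361 and 335 CPM in wild type with extract, 293 CPM in the knockout PBS library and 425 and 356 CPM in the knockout with extract. In the RNase III set the median wild-type response of the list was 0.00. Dnahc6 fell there (-0.86 ± 0.21, adjusted p = 0.0454), whereas Dnahc5 and Dnahc9 were not called (-0.48 ± 0.28 and -0.35 ± 0.16, adjusted p = 0.327 and 0.222). The share of airway sampled in each library was not tested.

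**Figure D5:**
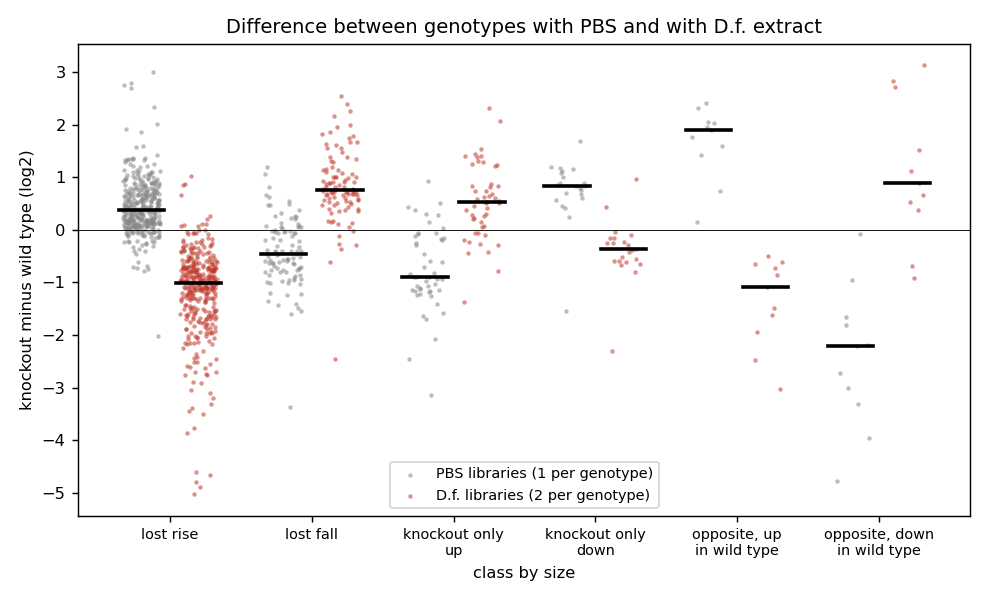
Difference between the genotypes (y axis, knockout minus wild type, log2) with PBS (grey, 1 library per genotype) and with D.f. extract (red, 2 libraries per genotype) for the genes of each class (x axis), 1 point per gene with the median as a black line, leaving out Psca and Ifi202b, whose reads in the knockout were at or under the limit. In lost increases the red median (-1.02) lies farther from 0 than the grey one (0.38), while in the opposite and knockout-only classes the grey medians are the farther ones.

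Of the 23 genes with opposite responses, the part measured with PBS was the larger in most. The absolute difference between the PBS libraries exceeded that between the D.f. groups in 7 of 12 that were up in wild type and in 8 of 11 that were down, against 6556 of all 13334 genes. Only 2 of the 23 had PBS libraries within 0.5 of each other, Cd163 and the imprinted noncoding RNA gene H19. Called between the D.f. groups, which the rule also used, were Ccl5 and Ifi202b, both lower in the knockout, and Cd163, Igfbp3 and Cd209a, all higher. Of all tested genes 2.01% were called lower and 0.517% higher. Ifi202b had 2, 1 and 0 reads in the knockout libraries, so no fold can be given there, and it belongs to the class only through fitted values near 0.

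Cd163, the scavenger receptor for haemoglobin on resident macrophages (chromosome 6, 124254669 to 124280545, plus strand), was the gene of this class with alike PBS libraries and a called D.f. difference. It read 8.88 CPM with PBS in wild type and 8.39 CPM in the knockout. With extract it read 2.61 and 2.52 CPM in wild type and 12.1 and 21.6 CPM in the knockout. Both wild-type libraries with extract lay below, and both knockout libraries with extract above, the 2 PBS libraries. The D.f. difference was 2.71 ± 0.33 (adjusted p = 0.0259) and the interaction 2.80 ± 0.54 (adjusted p = 0.212; 0.0896 in the 10-library fit), and neither response was called alone (adjusted p = 0.109 in wild type and 0.819 in the knockout). In wild type of the RNase III set Cd163 fell by 2.13 ± 0.45 (adjusted p = 0.0268).

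Igfbp3 and Cd209a were similar with extract but not with PBS. Igfbp3, a carrier of insulin-like growth factors (chromosome 11, 7106089 to 7113926, minus strand), read 123 CPM with PBS and 64.6 and 53.8 CPM with extract in wild type. Knockout lung read 63.3 CPM with PBS and 131 and 127 CPM with extract, so that the knockout with PBS resembled wild type with extract. The interaction was 2.08 ± 0.20 (adjusted p = 0.112), the D.f. difference 1.12 ± 0.12 (adjusted p = 0.0189), and the wild-type decrease was called here (-1.05 ± 0.14, adjusted p = 0.0388) and in the RNase III set (-2.24 ± 0.27, adjusted p = 0.00283). Cd209a, a C-type lectin of dendritic cells (chromosome 8, 3743395 to 3748984, minus strand), read 4.38 CPM with PBS and 1.09 and 0.780 CPM with extract in wild type. In the knockout it read 1.39, 8.51 and 4.90 CPM, and the interaction of 4.48 ± 0.67 was called in the 10-library fit (4.24, adjusted p = 0.0316) but not in the 6-library fit (adjusted p = 0.161). The mannose receptor gene Mrc1, outside the class by size, read 127 CPM with PBS and 80.2 and 87.0 CPM with extract in wild type, and 122, 165 and 166 CPM in the knockout, a D.f. difference of 0.99 ± 0.09 (adjusted p = 0.0150). Mgl2, a galactose-type lectin of macrophages and dendritic cells, also was higher in the knockout with extract (1.61 ± 0.26, adjusted p = 0.0466). Of 22 monocyte and interstitial macrophage genes, 3 were called higher and 1 lower in the knockout between the D.f. groups (all tested genes: 0.517% and 2.01%). By sign of the interaction, 17 of the 22 were negative and 5 positive, so Cd163 and Mrc1 were among the minority of the list in that respect. Ly6c2, a marker of inflammatory monocytes, went the other way, at 1.88, 33.9 and 27.5 CPM in wild type and 3.47, 6.06 and 3.35 CPM in the knockout, although reads of near-identical Ly6 copies make it uncertain.

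Genes of NK cells made up 5 of the 12 that were up in wild type and down in the knockout (Nkg7, Eomes, Ncr1, Prf1 and Gzma). Nkg7, a membrane protein of cytotoxic granules (chromosome 7, 50692443 to 50693616, plus strand), read 1.20 CPM with PBS and 5.43 and 6.42 CPM with extract in wild type. Knockout lung read 6.37 CPM with PBS and 3.56 and 2.05 CPM with extract, so that the knockout PBS library was as high as wild type with extract. The interaction was -3.48 ± 0.58 (adjusted p = 0.180), of which 2.41 lay between the PBS libraries and -1.08 ± 0.31 between the D.f. groups (adjusted p = 0.159). Eomes, a transcription factor of NK and CD8 T cells, read 0.911, 3.45 and 4.56 CPM in wild type and 4.54, 1.86 and 1.00 CPM in the knockout, with an interaction of -3.79 ± 0.67 (adjusted p = 0.192; 0.0216 in the 10-library fit). All 17 tested NK cell and cytotoxic genes had a negative interaction (median -2.68), and none had PBS libraries within 0.5. Between the D.f. groups 1 of the 17 was called lower, where 2.01% of all tested genes were. It was the interleukin 2 receptor subunit gene Il2rb (-1.08 ± 0.16, adjusted p = 0.0424). The summed level of the list was 25.7 CPM in the wild-type PBS library, 82.4 and 84.7 CPM in wild type with extract, 84.7 CPM in the knockout PBS library and 51.2 and 31.7 CPM in the knockout with extract. In the RNase III set the median wild-type response of these NK cell genes was 1.53. The number of NK cells in each lung was not tested.

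Airway secretory and adipose genes were the counterpart that was down in wild type. Muc5b, the main gel-forming mucin of the resting airway (chromosome 7, 149024975 to 149058990, plus strand), read 14.4 CPM with PBS and 2.76 and 4.68 CPM with extract in wild type. In the knockout it read 1.45 CPM with PBS and 2.82 and 61.4 CPM in libraries 5 and 6. Bpifb1 and Scgb3a1, secreted proteins of airway glands and secretory cells, were likewise high in the wild-type PBS library (12.8 and 11.6 CPM) and knockout library 6 (15.0 and 16.6 CPM) and at most 5.23 CPM elsewhere. None of the 3 was called in the 6-library fit, and in the RNase III set their wild-type responses were 1.26 ± 1.22, 1.29 ± 1.28 and 0.01 ± 1.44. Car3, a carbonic anhydrase abundant in fat and muscle, read 17.3, 3.995 and 4.56 CPM in wild type and 0.631, 1.33 and 3.15 CPM in the knockout, with a PBS difference of -4.76. The 12 adipose tissue genes had a median interaction of 1.46 with a PBS difference of -1.61, and the 23 cardiac muscle genes a median of 0.60 with a PBS difference of -2.81. The cardiac median rested on single libraries, at 0.03 without knockout library 6 and 1.02 without library 5. The part of tissue sampling in these values was not tested.

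Among the 50 genes up in the knockout alone, 32 had a larger difference between the PBS libraries than between the D.f. groups, and in 23 libraries 5 and 6 differed by more than 2-fold. Their median interaction was 1.22, with -0.90 between the PBS libraries and 0.52 between the D.f. groups. Of 47 tested in wild type of the RNase III set, 8 rose and 1 fell, where 6.51% of all genes rose and 4.50% fell. Psca belongs to the class only through fitted values, since it had 0, 1 and 0 reads in the knockout. Between the D.f. groups 2 genes of the class were called higher in the knockout and 1 lower, where 0.517% and 2.01% of all tested genes were. The 2 called higher were Hif3a and the unnamed transcript E030003E18Rik, and both had PBS libraries within 0.5. Hif3a, a hypoxia-inducible factor subunit that can restrain the other subunits (chromosome 7, 17616856 to 17647776, minus strand), read 9.05 CPM with PBS and 10.5 and 9.48 CPM with extract in wild type. Knockout lung read 7.88 CPM with PBS and 20.3 and 25.9 CPM with extract, the 2 highest values. The interaction was 1.41 ± 0.31 (adjusted p = 0.247), the knockout response 1.55 ± 0.23 (adjusted p = 0.781) and the D.f. difference 1.21 ± 0.17 (adjusted p = 0.0350).

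Cdkn1a, the cell cycle inhibitor p21 (chromosome 17, 29227924 to 29237667, plus strand), had alike PBS libraries too, at 74.1 and 70.8 CPM. With extract it read 109 and 90.0 CPM in wild type and 156 and 176 CPM in the knockout, a D.f. difference of 0.74 ± 0.13 (adjusted p = 0.0556). Krt79, a keratin of alveolar macrophages, read 11.6, 9.67 and 9.42 CPM in wild type and 6.24, 15.7 and 18.1 CPM in the knockout, an interaction of 1.72 ± 0.26 (adjusted p = 0.161). By the responses that DESeq2 fitted, 3 genes it called were up in the knockout alone. They were Krt79 (1.73, adjusted p = 0.0287), Pdk4 (2.29, adjusted p = 0.00270) and Sox11 (2.39, adjusted p = 9.9e-10). Sox11 was also called higher in the 10-library fit (2.02, adjusted p = 0.0316), but not there as a response of the knockout alone. The knockout PBS library was the lowest of the 6 for Hif3a, Cdkn1a and Krt79, and also for Fos, Cxcl17 and Bdkrb1. Fos, an immediate early transcription factor, read 26.9, 20.2 and 24.4 CPM in wild type and 9.02, 18.0 and 18.6 CPM in the knockout. Cxcl17, a mucosal chemokine, read 27.8, 22.44 and 22.03 CPM in wild type and 13.2, 24.4 and 30.2 CPM in the knockout. Bdkrb1, the inducible bradykinin receptor, read 5.64, 5.03 and 3.48 CPM in wild type and 0.631, 2.77 and 5.45 CPM in the knockout. For Fos, Cxcl17 and Bdkrb1 the D.f. groups differed by -0.28, 0.29 and -0.05 and none was called.

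Genes induced by glucocorticoids had mostly positive interactions with PBS libraries that were alike. Of 17 tested, 14 had a positive interaction (median 0.82, 4 with an unadjusted p below 0.05), with medians of -0.09 between the PBS libraries and 0.83 between the D.f. groups. By edgeR in the 6 libraries, 0 were called for the interaction or between the D.f. groups. DESeq2 called 2 of the list higher for the interaction, where it called 0.229% of all tested genes. The 14 members with PBS libraries within 0.5 had a median of 0.81. Without knockout library 6 the median of the list fell to 0.35. Klf9, a glucocorticoid-induced transcription factor, read 182, 167 and 144 CPM in wild type and 144, 253 and 219 CPM in the knockout, an interaction of 0.95 ± 0.21 (adjusted p = 0.262, and 0.0405 by DESeq2). Fkbp5, a chaperone of the glucocorticoid receptor, read 14.3, 41.1 and 24.5 CPM in wild type and 20.1, 48.9 and 159 CPM in the knockout, so that library 6 stood apart. In the RNase III set the median wild-type response of the list was 0.03.

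Of the 22 genes down in the knockout alone, 9 were on the list of 17 tested B cell and plasma cell genes. Cd79b, part of the B cell receptor (chromosome 11, 106172655 to 106176076, minus strand), read 7.63, 9.17 and 11.3 CPM in wild type and 16.1, 9.94 and 6.00 CPM in the knockout. The knockout PBS library was the highest, and the D.f. groups overlapped. The class had a median of 0.84 between the PBS libraries and -0.37 between the D.f. groups, the former larger in 19 of 22, and 0 of 22 were called in the wild-type response of the RNase III set, where 6.51% of all genes rose and 4.50% fell, so that 0 is near the background. The kinase gene Stk32c was the 1 gene of the class called lower between the D.f. groups, where 2.01% of all tested genes were. It was lower with PBS as well (2.02 against 5.92 CPM). None of these 22 was called for the interaction by edgeR in 6 or 10 libraries or by DESeq2, and 5 had an unadjusted p below 0.05. Sorted by the responses that DESeq2 fitted, 1 called gene was down in the knockout alone, the connexin gene Gja4 (-1.24, adjusted p = 0.0189).

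Among inflammatory mediators, the acute phase gene Saa1 and the neutrophil chemokine gene Cxcl3 were called lower in the knockout between the D.f. groups. Of 24 tested acute phase and secreted defence genes 1 was called lower there. Of 17 tested neutrophil chemokines and acute cytokines 1 was as well, where 2.01% of all tested genes were. Saa1 read 0.342 CPM with PBS and 15.7 and 14.7 CPM with extract in wild type, and 2.21, 3.93 and 4.75 CPM in the knockout. The D.f. groups differed by -1.80 ± 0.18 (adjusted p = 0.0172) and the PBS libraries by 2.67, with 6 reads in wild type. Its interaction was -4.47 ± 0.45 (adjusted p = 0.112), and it was called in the 10-library fit (-4.09, adjusted p = 0.00753) and by DESeq2 (adjusted p = 3.4e-05). Cxcl3 read 0.455 CPM with PBS and 36.9 and 25.5 CPM with extract in wild type, and 0.315, 2.82 and 3.50 CPM in the knockout. Its D.f. difference was -3.30 ± 0.25 (adjusted p = 0.0105) and its interaction -2.78 ± 0.93 (adjusted p = 0.422). Saa1 has the near-identical copy Saa2, so its counts are uncertain. Several other mediators were not called in the 6-library fit. Saa3, an acute phase protein, read 1.54 CPM with PBS and 460 and 384 CPM with extract in wild type. In the knockout it read 9.77 CPM with PBS and 17.0 and 366 CPM in libraries 5 and 6, so that 1 knockout library was near the PBS level and the other near wild type. Its interaction was -3.80 ± 2.56 (adjusted p = 0.755), with -7.27 without library 6 and -2.87 without library 5. Ccl11, the eosinophil chemokine eotaxin, read 2.96, 9.32 and 5.40 CPM in wild type and 0.757, 1.86 and 8.90 CPM in the knockout, an interaction of 1.51 ± 1.49 (adjusted p = 0.857). Ccl22, a ligand of Ccr4, read 54.2 and 40.8 CPM with extract in wild type and 7.18 and 82.9 CPM in the knockout. The neutrophil chemokine gene Cxcl1 (-0.65 ± 0.86, adjusted p = 0.904), Il6 (2.91 ± 1.32, adjusted p = 0.584) and the mucin gene Muc5ac (1.85 ± 2.20, adjusted p = 0.884) gave no call, and in the 10-library fit their interactions were -1.50, 0.52 and 0.28. Of 24 acute phase and secreted defence genes the median response was 1.56 in wild type and 1.38 in the knockout, and the median interaction -0.40, which ranged from -0.26 without knockout library 5 to -0.80 without library 6.

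The promoters were then searched by class, with the ISRE core as printed above. Of 366 lost increases 266 had a promoter in the RefSeq table, and 46 of these (17.3%) held the core, against 3.85% of the 9419 genes with a promoter among those whose mean log2 CPM reached 1. In lost decreases it was 1.47% of 68 (1 gene), in genes up in the knockout alone 3.33% of 30 (1 gene), and in those with opposite responses 12.5% of 16 (2 genes). The GAS motif (TTCNNNGAA) was in 13.5% of lost increases and 8.48% of all these genes, and the NF-kB site in 16.9% and 12.7%. The AP-1 motif (TGANTCA) was in 9.77% and 6.53%, and the E-box CACGTG in 7.14% and 11.6%. In lost decreases the E-box was found in 10.3%. The GAS motif was in 5 of the 16 genes with opposite responses (31.2%), in 8.82% of lost decreases and in 0% of genes up in the knockout alone. Both strands were searched, and a gene with several promoters counted once if any held the motif. These shares are descriptions with no test.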

How the data were processed

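Whole lung RNA was sequenced as 100-base single-end reads from Illumina TruSeq total RNA libraries, per the labels' protocols. Per the submitters' processing notes, reads were aligned to mm9 with TopHat2 2.0.8b and counted with HTSeq. HTSeq's annotation and strand setting were not stated, so overlapping or antisense genes cannot be separated. The deposited values are raw read counts per gene, 1 table per library, with 22609 genes. The 5 closing rows of each table, which name no gene, were left out. Reads assigned to genes made up 23.1% to 25.3% of each table's total.

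The counts were fitted with edgeR 4.0.16 in R 4.3.3 (TMM, filterByExpr by group, 1 mean per group, glmQLFit and glmQLFTest, Benjamini-Hochberg adjusted p below 0.05), on the 6 libraries of the knockout set, with 2 residual degrees of freedom. The spread of each genotype's single PBS library was taken from the replicated groups. DESeq2 1.42.0 and the other alternatives are given in the closing section. Positions are from GENCODE mouse release 1 (NCBIM37), which holds 95.7% of the symbols. Promoters are from RefSeq (GRCm38.p6) and were matched by symbol; Ccl5 and C2 have no entry. The scripts were tested on simulated data.

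Groups came from the titles. The classes and 44 gene lists were chosen with earlier results of these data known. Named genes were those called, up to 8 per class by interaction p, passing over unnamed models, up to 4 per list, and Tlr3, Mavs, Ifnb1, Isg15, Cxcl10, Saa3, Il33, Ccl11, Muc5ac, Cxcl1 and Il6. Others (such as Muc5b, Bpifb1, Scgb3a1, Mgl2, Siglech, Stk32c, H19, Psca, Ifi202b, Prf1, Gzma, Ncr1, Ccl22, Fkbp5, Il2rb, Dnaic1, Gja4, Pdk4, Sox11 and E030003E18Rik) were chosen after their values were seen. Results for some genes are not reported here.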

Additional observations from a re-analysis of the deposited data

Results flagged for a closer look

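Ccl5 is given a closer look because its response to the extract differed between the genotypes by a test of the difference itself. The interaction was -4.92 on the log2 scale (edgeR's quasi-likelihood test, adjusted p = 0.0429), with 50.6 and 44.1 CPM in wild type with extract against 6.01 and 5.55 CPM in the knockout with extract. The PBS libraries read 3.24 CPM in wild type and 12.05 CPM in the knockout.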

How the results depend on the processing

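The genes called for the interaction numbered 1 lower and 0 higher in the knockout with TMM, and the same with RLE factors, upper quartile factors, library sizes only and a stricter filter on low counts. DESeq2 called 178 lower and 35 higher for the interaction, 648 in the wild-type response, 36 in the knockout response and 736 between the D.f. groups. Its interaction calls held 10 opposite, 170 lost increases, 20 lost decreases, 3 smaller responses and 4 seen in the knockout only. Without a filter on low counts, 12 genes were called lower and 4 higher, 391 in the wild-type response, with 2 opposite, 11 lost increases and 2 lost decreases. A fit over all 12 libraries called 6 lower and 1 higher, 391 in the wild-type response and 5 lost increases. The fit over 10 libraries with the set as a term called 75 lower and 5 higher, 2230 in the wild-type response, with 4 opposite, 72 lost increases and 3 lost decreases. At an unadjusted p below 0.05 and a size of at least 1, 439 genes were lower and 227 higher.

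Leaving out 1 D.f. library at a time moved the counts most. Called lower were 0 to 1055 genes, called higher 0 to 611, in the wild-type response 0 to 3150, in the knockout response 0 to 2092 and between the D.f. groups 7 to 3048. The called classes ranged over 0 to 78 opposite, 0 to 645 lost increases, 0 to 377 lost decreases, 0 to 72 smaller, 0 to 435 in the knockout only and 0 to 65 larger in the knockout. The low ends came without a wild-type library, when only the unequal knockout pair gave the spread, and the high ends without a knockout library, when only the wild-type pair did. By size, lost decreases ranged over 67 to 159, knockout-only increases over 29 to 98, knockout-only decreases over 13 to 113, opposite up in wild type over 9 to 42 and opposite down in wild type over 5 to 14. A PBS library could not be left out, since each genotype has 1.

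Restrictions added after seeing the data changed the classes by size. With PBS libraries within 0.5 there were 211 lost increases, 44 lost decreases, 16 knockout-only increases, 3 knockout-only decreases and 1 gene in each opposite class. With knockout D.f. libraries within 2-fold there were 27 knockout-only increases, 14 knockout-only decreases, 6 opposite up and 7 opposite down in wild type. Of 50 named genes followed over 598 pairs of gene and alternative, 1 changed sign, Ccl11 (-0.00764 without knockout library 6 and 2.22 without library 5), and Ccl5 lost its call without wild-type library 3 or 4. Tlr3 and Mavs were set aside from the sensor list after seeing the data; with both, 22 of 23 had a negative interaction (median -1.11) and 10 were called lower between the D.f. groups. No paired analysis was possible because the title numbers run from 1 to 6 over the set and no compared groups share a number.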
